A study of Rattus norvegicus with 12 samples.

Results

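The genes described here are chaperones of the endoplasmic reticulum (ER) and the sensors, transcription factors and targets of the unfolded protein response in the liver of obese ZSF1 rats. They were chosen by symbol from a list of 35, of which 32 had a row among the 16478 genes of the count files. Txndc5, Derl2 and Edem1 had none under those symbols and were not analysed here. All 32 passed the filter on low counts that left 9943 genes for testing, and each is accounted for below. Livers came from 6 female and 6 male ZSF1 rats, adult, 16 weeks old, of the obese phenotype and untreated, with 1 library per animal. ZSF1 is a cross of 2 rat strains whose obese offspring carry a defective leptin receptor on both alleles, a background that both sexes share here, and lean animals were not analysed here. Animals are called by their sex and the number in their label (females 7, 8, 9, 10, 12 and 13, and males 1 to 6).

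The ER folds secreted and membrane proteins, and the hepatocyte, which secretes most plasma proteins, is rich in it. When unfolded proteins accumulate there, 3 membrane sensors respond. ATF6 is cut to free a transcription factor that induces chaperones. IRE1, encoded by Ern1, splices the Xbp1 transcript so that it yields an active factor for folding, translocation and degradation genes. PERK, encoded by Eif2ak3, slows translation and raises ATF4, which acts on amino acid and stress genes such as Asns, Ddit3 and Trib3. Gene counts do not tell spliced from unspliced Xbp1, and cleavage of ATF6 and phosphorylation of PERK are not seen in RNA. Many targets answer to both ATF6 and XBP1, so the arm under which a gene is listed here is a convention.

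Female libraries held 6763879 to 24837602 counts over genes, and male libraries 11381428 to 29232871. Levels are CPM, counts set to a common library total and scaled by TMM factors, which adjust for composition, and 3 counts correspond to 0.103 to 0.444 CPM. Of all libraries, 2 stood apart. Male 4 held 73810 CPM of 14 acute phase genes in sum, where the females held 24590 to 31210 and the other males 30060 to 34060. Female 12 stood apart in the ER genes themselves. The summed level of the 32 genes was 18040 CPM in female 12, against 8941 to 9383 CPM in the other 5 females and 7871 to 10360 CPM in the males. The hepatocyte marker list, led by Alb, summed to 244500 to 324800 CPM in females and 228700 to 267400 CPM in males. Its genes did not share a direction. Of 10 tested, 3 were higher in females, Alb among them, and 4 were higher in males. In bulk liver, fewer cells of a type and less RNA per cell cannot be told apart.

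Over all 12 animals, a smaller share of these genes than of all genes was called between the sexes. By edgeR's quasi-likelihood test, 7 of 32 (21.9%) had a Benjamini-Hochberg adjusted p under 0.05, against 43.2% of all 9943 genes tested. The 4 that were higher in females were Ern1, Eif2ak3, Atf6 and Pdia4, where 20.5% of all genes were higher in females. The 3 that were higher in males were Trib3, Sec61b and Derl1, where 22.7% of all genes were higher in males. In 6 of 32 genes the sexes did not overlap, a share not far from the 22.8% of all genes. By arm, 2 of 14 genes listed under ATF6 were called, both higher in females. Of 12 under IRE1-XBP1, 1 was higher in females and 2 in males, and of 6 under PERK 1 was higher in females and 1 in males. The median log2 fold change of females over males was 0.16 over the 32 genes and -0.013 over all genes, and without female 12 the median of the 32 was -0.05. With that animal left out, 4 of the genes were higher in females (background 19.7%) and 6 in males (22.1%), 10 in all against 41.8% of all genes. With male 4 left out as well, 5 were higher in females (24.2%) and 7 in males (22.5%), against 46.7% in either direction.

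**Figure D1:**
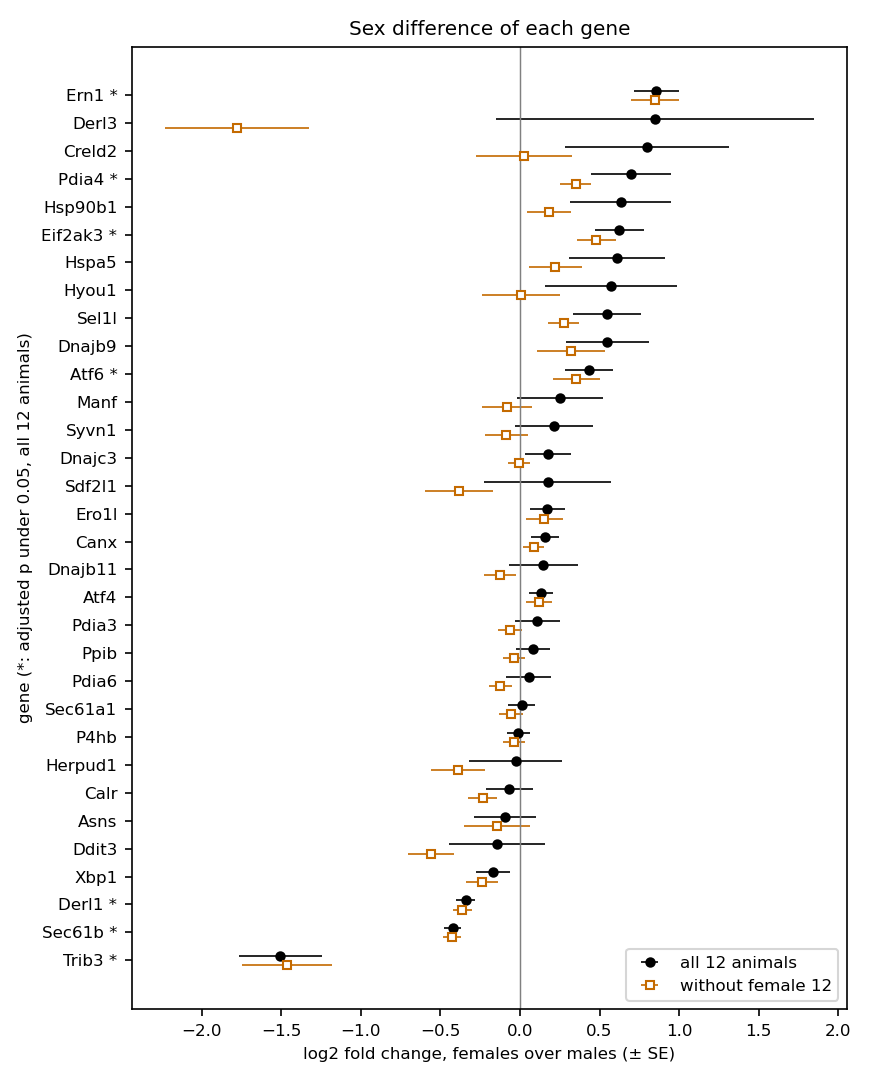
Log2 fold change of females over males for each of the 32 genes, with its standard error, over all 12 animals (filled circles) and without female 12 (open squares); an asterisk marks an adjusted p under 0.05 over all 12 animals. Ern1, Derl1, Sec61b and Trib3 lie in nearly the same place in both fits, while Eif2ak3 lies at 0.62 with all animals and at 0.48 without female 12 and Derl3 lies at 0.85 with all animals and at -1.78 without female 12.

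All 3 stress sensors were higher in females. Ern1, which encodes the IRE1 sensor, ranged from 22.6 to 30.5 CPM with a median of 27.7 in females, against 9.54 to 19.3 CPM with a median of 16.1 in males. Every female lay above every male, and the difference was 1.81-fold (log2 0.86, SE 0.141, adjusted p = 0.000264). Eif2ak3, which encodes PERK, ranged from 24.3 to 42.4 CPM (median 26.6) in females, against 14.0 to 24.1 CPM (median 17.8) in males. The sexes did not overlap here either, by the narrow margin between female 10 and male 6, and the fold was 1.54 (log2 0.62, SE 0.155, adjusted p = 0.00529). The top value belonged to female 12, and the difference held without that animal at 1.39-fold (adjusted p = 0.00613). Some markers of other cell types, most of those of sinusoidal endothelium among them, also differed by sex in these livers. The 5 with a row summed to 82.1 to 103 CPM in females and 29.2 to 81.6 CPM in males, and 4 of them (Flt4, Fcgr2b, Cdh5 and Lyve1) were higher in females, at log2 fold changes from 0.65 to 1.45. The part of any cell type in the levels of the sensors was not tested.

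Atf6, the third sensor, differed least of the 3. It ranged from 36.6 to 51.0 CPM (median 38.6) in females and from 17.8 to 38.9 CPM (median 30.8) in males. Male 6 fell within the female range and male 4 was the lowest animal. The fold was 1.35 (log2 0.43, SE 0.151, adjusted p = 0.0328). That call was lost without female 7, female 12, male 1 or male 2, with adjusted p up to 0.0746. Of the other sensors and membrane-bound factors listed with them, 6 of 12 tested passed toward females and 1 toward males, where 20.5% and 22.7% of all genes did. Creb3l1, a membrane-bound relative of ATF6, averaged 9.36 ± 2.01 CPM in females and 4.60 ± 1.02 CPM in males (SD, n = 6 each), a 2.04-fold difference with adjusted p = 0.000168. Mbtps2, a protease that cuts ATF6 in the Golgi, was 1.54-fold higher in females (adjusted p = 0.00673), at 5.92 ± 1.06 CPM in females and 3.88 ± 0.948 CPM in males.

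**Figure D2:**
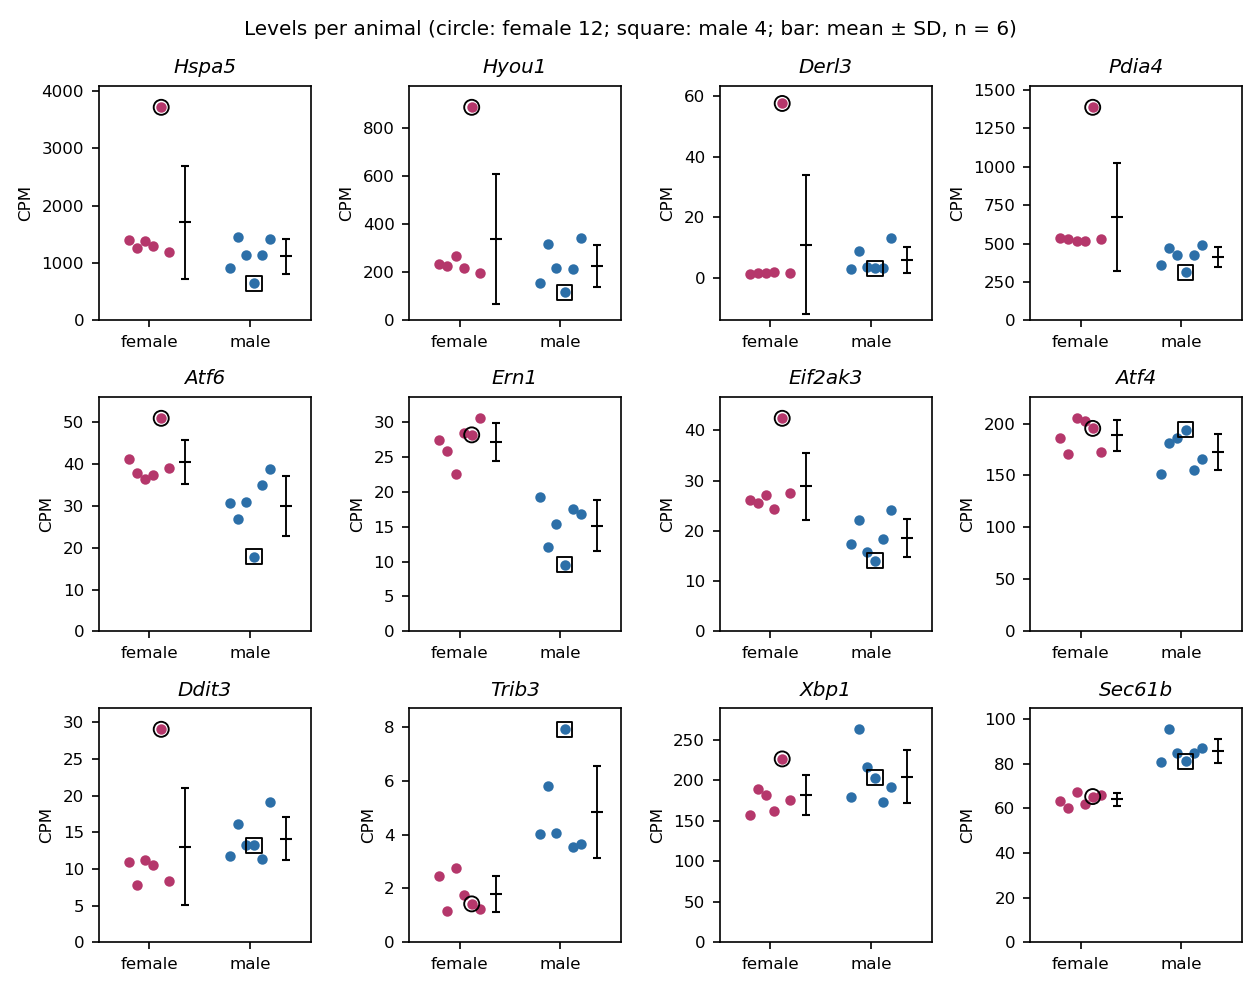
CPM in each animal for 12 of the genes, females left and males right, with the mean ± SD of 6 animals beside each group; a circle marks female 12 and a square male 4. Ern1, Eif2ak3, Trib3, Sec61b and Pdia4 show no overlap between the sexes. In Hspa5, Hyou1, Derl3, Pdia4, Atf6, Eif2ak3 and Ddit3 female 12 lies above every other animal.

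None of the 11 chaperones and co-chaperones was called between the sexes over all animals, against 43.2% of all genes. With edgeR their adjusted p ran from 0.108 for Dnajb9 to 0.755 for Sdf2l1. Without female 12, edgeR called Calr, which was then lower in females (log2 -0.235, adjusted p = 0.0488). DESeq2 called Dnajb9 (adjusted p = 0.0447), and limma-voom called none. Hspa5, which encodes BiP, the main ER chaperone and the restraint on the sensors, ranged from 1194 to 3711 CPM (median 1336) in females and from 651 to 1447 CPM (median 1142) in males. The value of 3711 belonged to female 12, and the next highest female was at 1394 CPM, inside the male range. The fold was 1.53 (log2 0.61, SE 0.302, adjusted p = 0.124), and 1.17 without female 12 (adjusted p = 0.311).

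The partners of BiP gave the same picture. Hsp90b1, the ER form of HSP90, stood at 2231 CPM in female 12, where the other females held 672 to 729 CPM and the males 412 to 800.3 CPM. Hyou1, a large exchange factor for BiP, stood at 886 CPM in female 12, with 199 to 266 CPM in the other females and 117 to 341 CPM in males. Without female 12 the fold of Hyou1 was 1.00 (adjusted p = 0.987), against 1.49 with all animals (adjusted p = 0.295). Creld2, a secreted ER stress protein with folding activity, stood at 249.8 CPM in female 12, with 40.7 to 65.8 CPM in the other females and 22.3 to 73.3 CPM in males. The remaining chaperones of this group, Sdf2l1 and Dnajb11, which work with BiP, Manf, which binds it, Dnajc3 and Dnajb9, its J-domain co-chaperones, and the lectins Calr and Canx, were also highest in female 12.

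The foldases, which form and shuffle disulfide bonds or turn prolines, held 1 called gene of 6, against 43.2% of all genes. Pdia4, a disulfide isomerase, ranged from 516 to 1387 CPM (median 530.2) in females and from 314.5 to 489 CPM (median 425) in males. Without overlap between the sexes, it was 1.62-fold higher in females (log2 0.70, SE 0.251, adjusted p = 0.0397). The 5 females besides female 12 lay within 516 and 539 CPM, and without female 12 the difference was smaller and its adjusted p lower (1.27-fold, adjusted p = 0.0119). The call was lost without any 1 of males 1 to 5, at adjusted p from 0.0506 to 0.085. P4hb, the most studied isomerase and also a subunit of prolyl hydroxylase and of the triglyceride transfer protein, had 2067 ± 137 CPM in females and 2081 ± 106 CPM in males (SD, n = 6 each; adjusted p = 0.926). Pdia3, which folds glycoproteins with calnexin and calreticulin, Pdia6, Ppib, a prolyl isomerase, and Ero1l, an oxidase that recharges the isomerases, had adjusted p from 0.226 to 0.781.

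ER-associated degradation, which draws misfolded proteins out to the proteasome, and the translocon each held 1 called gene, of 5 and of 2. Both were higher in males, as were 22.7% of all genes. Derl1, a channel component, ranged from 83.3 to 95.3 CPM (median 86.8) in females and from 105 to 124 CPM (median 112) in males. The sexes did not overlap, and Derl1 was 1.27-fold higher in males (log2 -0.34, SE 0.0579, adjusted p = 0.000292). Sec61b, a small subunit of the channel through which new proteins enter the ER, ranged from 60.1 to 67.5 CPM (median 64.3) in females and from 80.8 to 95.5 CPM (median 85.0) in males. It was 1.34-fold higher in males without overlap (log2 -0.42, SE 0.0534, adjusted p = 2.47e-05). Sec61a1, the pore subunit of the same channel, had 295 ± 32.3 CPM in females and 293 ± 32.5 CPM in males (SD, n = 6 each; adjusted p = 0.942). Calls for Derl1 and Sec61b, like those for Ern1, Eif2ak3 and Trib3, held when any 1 animal was left out.

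Derl3, a derlin that is usually abundant in secretory cells such as those of the pancreas, gave the widest spread of the set. It stood at 57.7 CPM (767 counts) in female 12, and at 1.28 to 2.13 CPM (11 to 51 counts) in the other 5 females. The males ranged from 2.88 to 13.2 CPM (33 to 378 counts), with males 6 and 2 highest. Over all animals the fold was 1.80 (log2 0.85, SE 1.00, adjusted p = 0.53). Without female 12 the direction turned, with Derl3 higher in males (log2 -1.78, SE 0.455, adjusted p = 0.00852). With limma-voom over all animals it was -0.91 (adjusted p = 0.323). Sel1l and Syvn1 form the ligase complex of this pathway, and Herpud1 is a regulator of it. Sel1l had 209 ± 90.3 CPM in females and 143 ± 19.1 CPM in males (SD, n = 6 each) and missed the threshold (1.46-fold, adjusted p = 0.0545). It passed in some other settings, among them without female 12 (1.21-fold, adjusted p = 0.0338) and with DESeq2 (adjusted p = 0.0173). With 1 animal left out at a time, the adjusted p of Sel1l ran from 0.0305 to 0.107, and 9 of these fits did not call it. Syvn1 and Herpud1 had adjusted p of 0.517 and 0.951.

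Among the genes of the PERK arm, Trib3 was the 1 that differed by more than 2-fold. Trib3, a pseudokinase known to bind AKT and to be induced by ATF4, ranged from 1.15 to 2.77 CPM (median 1.59; 19 to 42 counts) in females and from 3.55 to 7.90 CPM (median 4.04; 46 to 144 counts) in males. No female reached the lowest male, male 4 was the highest animal, and the difference was 2.84-fold toward males (log2 -1.51, SE 0.26, adjusted p = 0.000354). Without female 12 it was -1.46 on the log2 scale (adjusted p = 0.00101), and -1.28 when male 4 was left out too (adjusted p = 0.000284). Atf4 itself ranged from 171 to 205 CPM (median 191) in females and from 152 to 194 CPM (median 174) in males, with overlap (1.09-fold, adjusted p = 0.183). Asns, the asparagine synthetase gene and an ATF4 target, ranged from 3.21 to 6.79 CPM (median 4.61) in females and from 3.32 to 6.99 CPM (median 4.66) in males (adjusted p = 0.721). Within the set, the ATF4 targets Trib3 and Asns thus gave different results between the sexes.

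Of the transcription factors, neither Xbp1 nor Ddit3 was called over all animals. Xbp1 ranged from 157 to 226 CPM (median 179) in females and from 173 to 263 CPM (median 197) in males (adjusted p = 0.228). The highest value was that of male 2 and the next that of female 12. Ddit3, which encodes the pro-apoptotic factor CHOP, stood at 29.0 CPM in female 12, at 7.88 to 11.2 CPM in the other females and at 11.4 to 19.1 CPM in males. Over all animals the log2 fold change was -0.14 (SE 0.301, adjusted p = 0.732). Without female 12 no female reached the lowest male, and Ddit3 was lower in females (log2 -0.56, adjusted p = 0.00768).

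Female 12 was the animal in which these genes departed most from the rest. Relative to the median of its own sex, the 32 genes stood at a median of 1.77-fold in female 12, and between 0.813-fold and 1.22-fold in each of the other 11 animals. In female 12, 13 of 32 genes (40.6%) were at least 2-fold above the female median, against 1.07% of all genes tested. No other female had any, and males 2 and 6 had 1 each, Derl3 in both. In 24 of the 32 genes female 12 was the highest of all 12 animals, and in 27 it lay above every male. Shares over all genes were not computed for these. The genes had been listed with earlier results of these data known, so these counts describe the set and are no independent evidence.

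Genes listed under the arms departed to unlike extents in female 12, by a listing chosen with earlier results of these data known. Whether the arms themselves differ was not tested. All 14 genes listed under ATF6, 9 of 12 under IRE1-XBP1 and 2 of 6 under PERK were highest in female 12 among the females, where 24.3% of all genes were. The largest ratios to the female median were those of Derl3 (32.5-fold), Creld2 (5.56-fold), Hyou1 (3.85-fold), Sdf2l1 (3.67-fold), Hsp90b1 (3.19-fold) and Hspa5 (2.78-fold). Xbp1 itself stood at 1.27-fold and its target Dnajb9 at 1.96-fold. Of the PERK arm, Ddit3 stood at 2.70-fold and Eif2ak3 at 1.59-fold, while Asns was at 1.16-fold, Ero1l at 1.03-fold, Atf4 at 1.02-fold and Trib3 at 0.898-fold. The other genes that stayed close to the female median were Ern1 (1.01-fold), Sec61b (1.02-fold), Derl1 (1.08-fold) and P4hb (1.08-fold). Of the 7 genes called between the sexes, Ern1, Sec61b, Derl1 and Trib3 were thus within 0.898-fold and 1.08-fold of the female median in female 12.

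**Figure D3:**
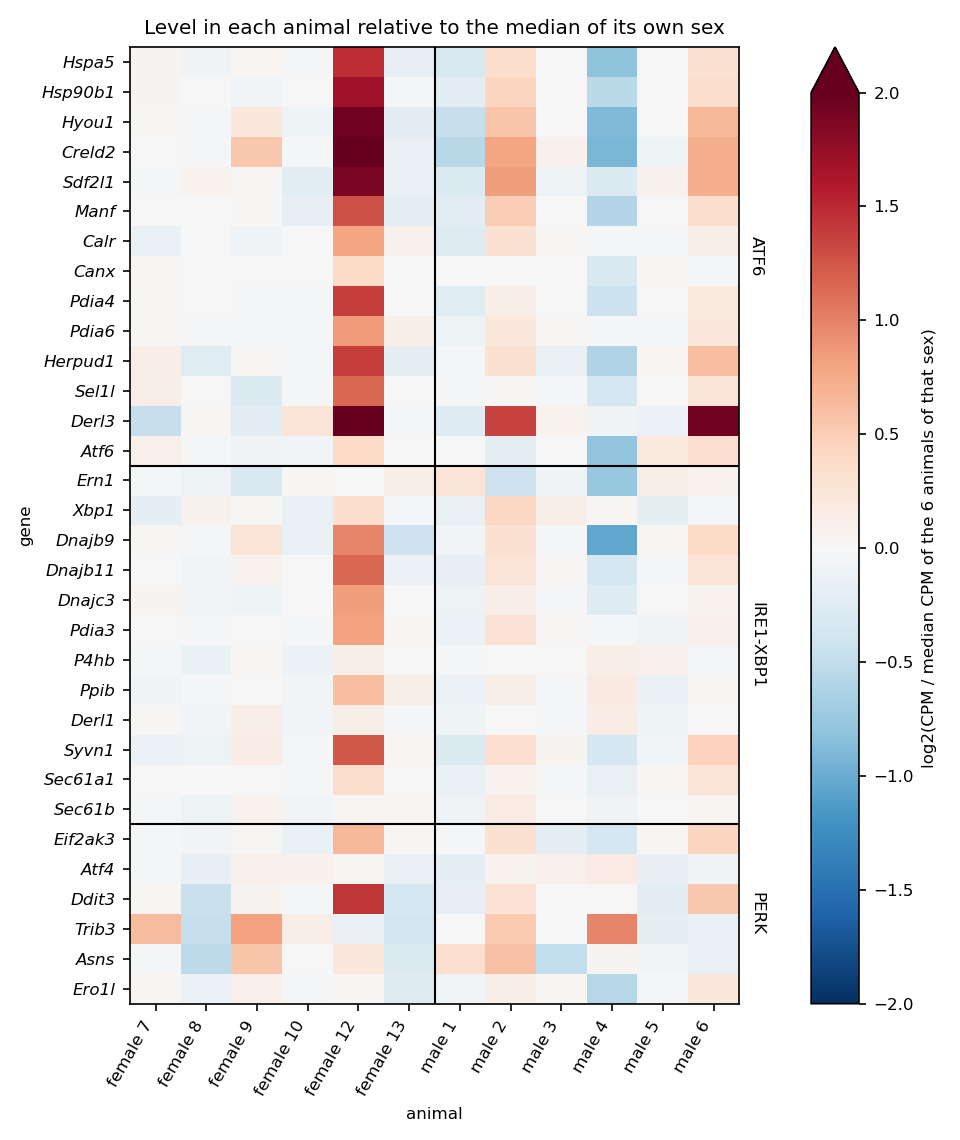
Log2 of each gene's CPM over the median of the 6 animals of the same sex, with genes in rows by arm and animals in columns, females left; colours are capped at 2 on the log2 scale. Female 12 is above its sex's median in 31 of 32 genes and male 4 in 8 of 32.

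Markers of other cell types that could carry such transcripts were measured in the same libraries. Acinar cells of the pancreas and plasma cells both hold high levels of ER chaperones. Of 14 acinar markers with a row, Prss1, Prss2, Cuzd1 and Try10 were at 0 in all animals. The summed acinar list was 43.2 CPM in female 12, within the 15.8 to 84.7 CPM of the other females, and 14.2 to 17.3 CPM in males. The 5 plasma and B cell markers with a row, of 10 listed, summed to 0.827 CPM in female 12. The other females held 1.31 to 1.80 CPM and the males 0.676 to 1.32 CPM. None of the 5 passed the filter on low counts, and 3 counts were 0.223 CPM in female 12. These sums therefore say little about plasma cells. The macrophage list summed to 358 CPM in female 12, 243 to 357 CPM in the other females and 144 to 559 CPM in males. Stellate cell, sinusoidal endothelial and hepatocyte sums of female 12 lay within those of the other females, and its bile duct sum, at 6.17 CPM, lay just below them (6.81 to 10.8 CPM). Female 12 held 13465570 counts over genes, inside the range of the other females. The part of any other cell type in the levels of female 12 was not tested.

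Promoters of the genes are shown because ATF6 and XBP1 are known to act through short elements close to the start site. A promoter of 250 bases before to 50 bases after the start was found in a RefSeq table of build GRCr8 for 24 of the 32 genes. Manf, Pdia6, Atf6, Ern1, Pdia3, Derl1, Sec61a1 and Ero1l had none. Each was searched on both strands for the ER stress response element ERSE (CCAAT, any 9 bases, then CCACG), for ERSE-II (ATTGG, any base, then CCACG), for the core of the unfolded protein response element (TGACGTGG) and for an ATF4 type element (TGATGNAAT). ERSE occurred in 8 of 24 windows, against 0.0765% of 27457 gene windows in the table. ERSE-II occurred in 3, against 0.0546%, the core element in 1, against 0.637%, and the ATF4 type element in none, against 1.05%. Only these exact letters were counted, so forms of an element that differ from them by a letter were missed. The list was built from known targets of these factors and the elements searched were known ones. These shares therefore describe the list and are no independent evidence. The ERSE and ERSE-II matches of the 11 genes that held either are printed to show the letters that were found, each along the strand of the motif with the fixed letters in capitals.
Derl3, chr20:12766601-12766619, + strand: CCAATaaggaagtcCCACG
Creld2, chr7:121789239-121789257, - strand: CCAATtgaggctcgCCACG
Hyou1, ERSE-II, chr8:53602794-53602804, - strand: ATTGGgCCACG
Hsp90b1, chr7:23012451-23012469, - strand: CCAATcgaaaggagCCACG
Hsp90b1, chr7:23012347-23012365, + strand: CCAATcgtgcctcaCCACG
Hspa5, chr3:38452973-38452991, + strand: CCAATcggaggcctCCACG
Herpud1, ERSE-II, chr19:10614821-10614831, - strand: ATTGGgCCACG
Dnajb11, ERSE-II, chr11:91672800-91672810, - strand: ATTGGcCCACG
Dnajc3, chr15:102432534-102432552, + strand: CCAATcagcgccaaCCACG
Calr, chr19:40213135-40213153, - strand: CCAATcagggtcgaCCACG
Canx, chr10:35158069-35158087, - strand: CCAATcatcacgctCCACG
Xbp1, chr14:84604558-84604576, + strand: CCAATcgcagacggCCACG

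The ERSE-II letters of Hyou1 shown here were the same as those of Herpud1. Hyou1 held a further ERSE-II, with the same letters as that of Dnajb11, that overlaps its core element. For Hspa5, Hyou1 and Derl3 the 250 bases before the start site are given along the strand of the gene, with every match in capitals, on which a match on the other strand reads as its reverse complement.
Hspa5, GRCr8 chr3:38452766-38453015, + strand: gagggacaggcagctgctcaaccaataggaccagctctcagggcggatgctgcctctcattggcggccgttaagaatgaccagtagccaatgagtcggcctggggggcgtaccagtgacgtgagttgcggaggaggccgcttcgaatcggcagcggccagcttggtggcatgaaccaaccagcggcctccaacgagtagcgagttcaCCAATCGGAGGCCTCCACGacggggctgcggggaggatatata
Hyou1, GRCr8 chr8:53602632-53602881, + strand: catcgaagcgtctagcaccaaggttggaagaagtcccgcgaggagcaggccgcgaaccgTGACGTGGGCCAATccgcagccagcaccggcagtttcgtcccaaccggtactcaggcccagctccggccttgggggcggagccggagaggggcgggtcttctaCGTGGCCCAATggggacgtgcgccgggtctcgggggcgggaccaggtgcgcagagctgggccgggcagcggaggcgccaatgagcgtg
Derl3, GRCr8 chr20:12766466-12766715, - strand: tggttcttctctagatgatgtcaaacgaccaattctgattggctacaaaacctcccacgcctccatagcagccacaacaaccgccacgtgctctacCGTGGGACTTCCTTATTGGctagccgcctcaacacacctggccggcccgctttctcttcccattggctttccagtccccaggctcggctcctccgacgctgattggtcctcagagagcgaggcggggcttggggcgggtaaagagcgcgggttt

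Set beside the levels, the 11 genes with an ERSE or ERSE-II match stood at a median of 2.61-fold of the female median in female 12, from 1.27-fold for Xbp1 to 32.5-fold for Derl3. The 13 genes with a window but no match had a median of 1.59-fold, from 0.898-fold for Trib3 to 3.67-fold for Sdf2l1. The PERK arm genes Eif2ak3, Atf4, Ddit3, Trib3 and Asns were all among those without a match. Match and arm thus ran together, and their parts in these medians of 1 library were not tested. Over all 12 animals 0 of the 11 matched genes and 4 of the 13 others were called between the sexes, against 43.2% of all genes, and the difference between these counts was not tested. Of the matched genes, Calr and Derl3 were called without female 12, and Herpud1 when male 4 was left out too. Sdf2l1, Pdia4 and Ddit3 show that genes without these exact letters in the window also stood far above the female median in female 12. Over all genes tested, the median in female 12 was 0.997-fold of the female median, and 4.03% were at least 1.5-fold. Of 25 genes outside the list whose window held either element, 13 were tested, with a median of 1.32-fold in female 12, and 5 of these were at least 1.5-fold. Among them was Ero1lb, the second ER oxidase gene, now named Ero1b, which stood at 82.1 CPM in female 12, against 34.8 to 44.3 CPM in the other females. A match is a description of the letters, and binding was not measured.

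**Figure D4:**
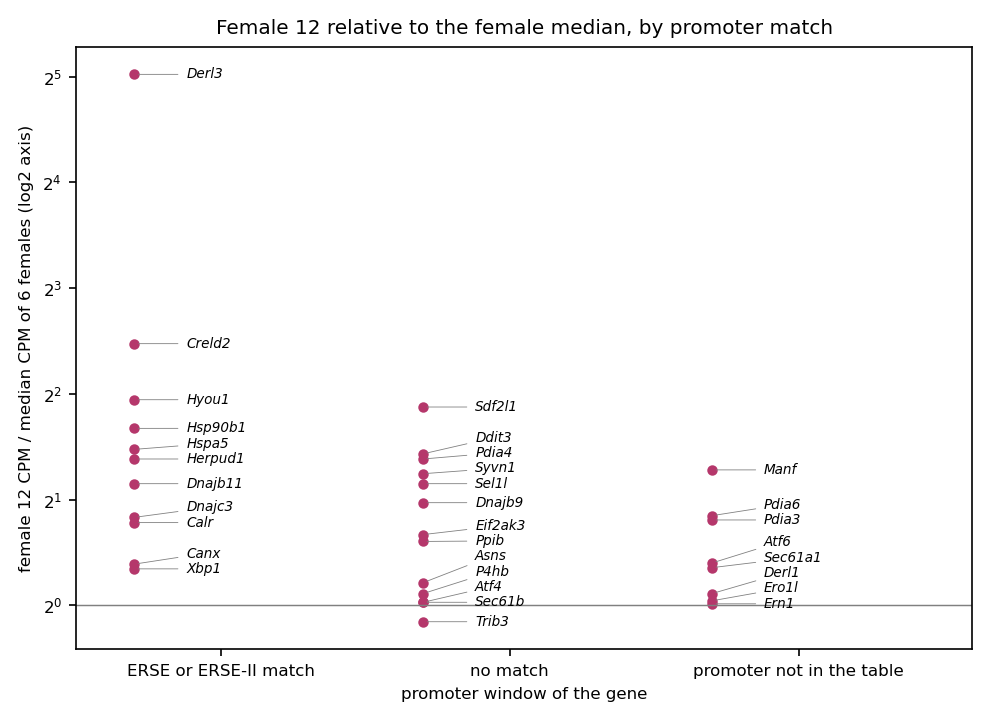
Ratio of female 12's CPM to the female median for each of the 32 genes on a log2 axis, grouped by whether the promoter window held an ERSE or ERSE-II match (11 genes), none (13) or was not in the table (8). Genes with a match run from 1.27-fold to 32.5-fold, and the range overlaps that of genes without one.

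Covariation among animals was examined within each sex, over 11 pairs of genes and 22 relations on log2 CPM. The 12th pair planned, Dnajb9 with Edem1, lacked a row for Edem1. In males the BiP group moved together. Hspa5 correlated with Hsp90b1 at Pearson r = 0.986 (exact permutation p = 0.00278, adjusted 0.0245; Spearman rho = 0.943, p = 0.0167, adjusted 0.0916; n = 6). Leaving out males 2 and 4, the farthest from the median of Hspa5, gave r = 0.984 over 4 animals. With Hyou1 r was 0.981, rho 0.886 and r without those males 0.991, and with Pdia4 r was 0.988, rho 0.886 and r without them 0.998 (exact permutation p = 0.00556 and adjusted p = 0.0245 for r, and p = 0.0333 and adjusted p = 0.0916 for rho, in both). Creld2 with Sdf2l1 gave r = 0.937 (exact permutation p = 0.0125, adjusted 0.0393; rho = 0.943, p = 0.0167, adjusted 0.0916), and 0.935 without males 2 and 4. Males 2 and 6 were the high animals, holding the top male value in 25 of 32 genes, and male 4 held the lowest in 19. Over all genes tested, males 2 and 6 held the top male value in 12.8% and 18.2%, and male 4 the lowest in 30.3%.

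Females gave high coefficients for the same pairs, which were lower without the 2 females farthest from the median, female 12 being 1 of them in each. Hspa5 with Hsp90b1 had r = 0.991 (exact permutation p = 0.0625, adjusted 0.138; rho = 0.6, p = 0.242, adjusted 0.38; n = 6), and r = 0.055 without females 12 and 13. Hspa5 with Hyou1 had r = 0.996 (exact permutation p = 0.00556, adjusted 0.0245; rho = 0.886, p = 0.0333, adjusted 0.0916) and 0.689 without them. Hspa5 with Pdia4 had r = 0.99 (exact permutation p = 0.0833, adjusted 0.148; rho = 0.486, p = 0.356, adjusted 0.489) and 0.063 without them. Creld2 with Sdf2l1 had r = 0.977 (exact permutation p = 0.0403, adjusted 0.0985; rho = 0.771, p = 0.103, adjusted 0.227) and 0.418 without females 9 and 12. By r, 2 of 11 relations in females and 5 of 11 in males had an adjusted p under 0.05, and by rho none in either sex did.

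Across the arms, Hspa5 followed the IRE1-XBP1 target Dnajb9 in both sexes. The coefficient was r = 0.93 in females (exact permutation p = 0.00694, adjusted 0.0254; rho = 0.886, p = 0.0333, adjusted 0.0916), and 0.668 without females 12 and 13. In males it was r = 0.953 (exact permutation p = 0.00417, adjusted 0.0245; rho = 0.943, p = 0.0167, adjusted 0.0916), and 0.863 without males 2 and 4. For Xbp1 with Dnajb9, r was 0.778 among females and 0.149 among males (exact permutation p = 0.0875 and 0.751, adjusted 0.148 and 0.924; rho = 0.486 and 0.086, p = 0.356 and 0.919, adjusted 0.489 and 0.919), and 0.355 and -0.265 without the 2 farthest animals. No relation of Hspa5 or Dnajb9 with Asns passed the threshold. Their coefficients were r = 0.367 and 0.551 among females and 0.034 and 0.095 among males (exact permutation p = 0.436, 0.244, 0.951 and 0.832, adjusted 0.6, 0.383, 0.951 and 0.951), with rho = 0.657 and 0.657 in females and 0.086 and -0.143 in males (p = 0.175, 0.175, 0.919 and 0.803). Without the 2 farthest animals these r were 0.702 and 0.717 in females and -0.59 and 0.666 in males.

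Within the PERK arm no pair passed the threshold in either sex. Atf4 with Asns had r = 0.891 in females (exact permutation p = 0.0208, adjusted 0.0572; rho = 0.943, p = 0.0167, adjusted 0.0916) and r = -0.154 in males (exact permutation p = 0.756, adjusted 0.924; rho = -0.2, p = 0.714), and 0.621 and 0.045 without the 2 farthest animals. For Asns with Trib3, r was 0.762 among females and 0.382 among males (exact permutation p = 0.0806 and 0.429, adjusted 0.148 and 0.6; rho = 0.771 and 0.371, p = 0.103 and 0.497), and 0.255 and 0.152 without them. For Ddit3 with Trib3, r was 0.06 among females and 0.045 among males (exact permutation p = 0.908 and 0.907, adjusted 0.951 for both; rho = 0.657 and 0.371, p = 0.175 and 0.497), and 0.93 and 0.661 without them. All levels of 1 animal come from 1 library, so its depth and composition are shared by both genes of a pair.

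**Figure D5:**
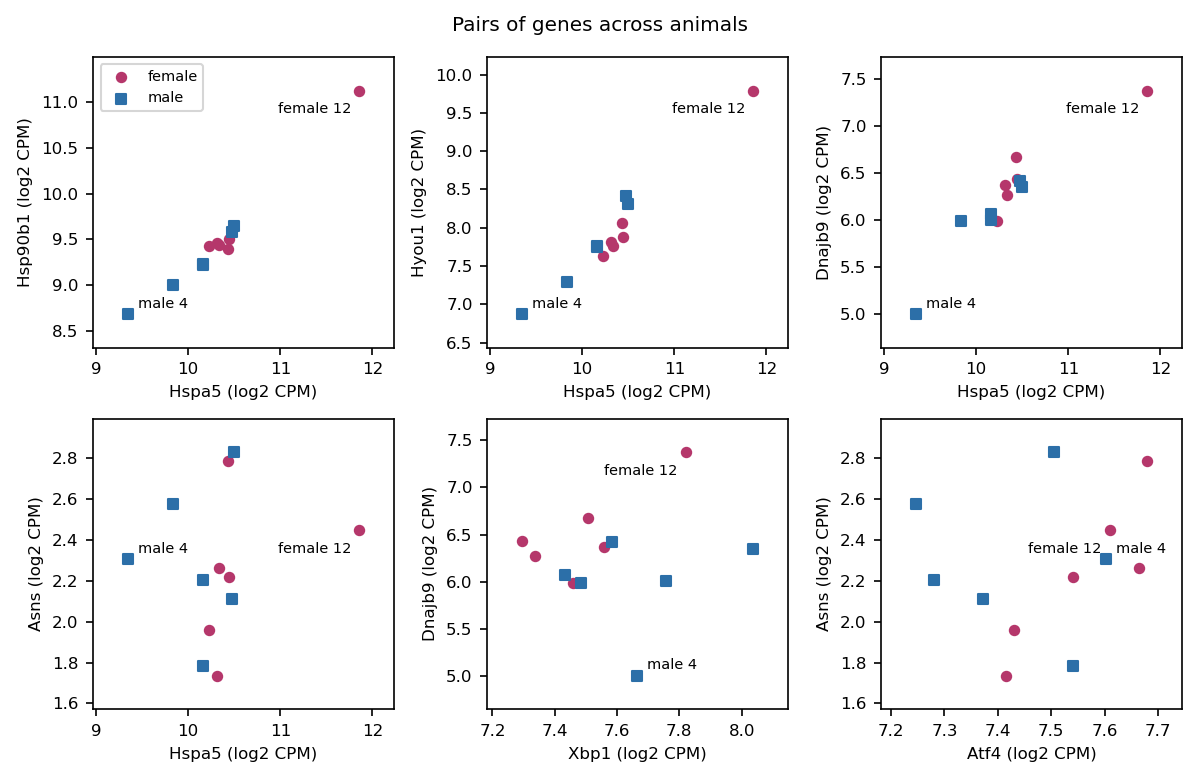
Log2 CPM of 6 pairs of genes in the 6 females (circles) and 6 males (squares), with female 12 and male 4 named. Hsp90b1, Hyou1 and Dnajb9 rise along Hspa5 across the males, the females besides female 12 are bunched, and Asns shows no such line with Hspa5.

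Other genes of the same pathways, from 7 lists with 135 entries, were called at 38.3% of the 115 tested, 21 higher in females and 23 in males, close to the 43.2% of all genes. Of 17 other foldases and co-chaperones, 5 passed toward females and 3 toward males. Hspa13, an HSP70 relative of the ER, was 1.49-fold higher in females (adjusted p = 0.00881), and the prolyl isomerases Fkbp2 and Fkbp11 were 1.37-fold and 1.35-fold higher in males (adjusted p = 3.13e-05 and 0.0105). Among 19 translocon and signal peptidase genes, 1 passed toward females and 7 toward males. Ssr4, a small translocon subunit, was 1.40-fold higher in males (adjusted p = 2.9e-06), as was Sec11c, a catalytic subunit of signal peptidase, at 1.36-fold (adjusted p = 0.00227). Spcs3, another signal peptidase subunit, was 1.53-fold higher in females (adjusted p = 0.00239).

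Of 14 glycosylation and glycan trimming genes, 4 passed toward females and 1 toward males, with the ER lectin gene Mlec at 1.47-fold, Uggt1, which re-glucosylates misfolded glycoproteins, at 1.44-fold and the cargo receptor gene Lman1 at 1.44-fold toward females (adjusted p = 0.00336, 0.0217 and 0.00373). Of 15 further degradation genes 1 was higher in females, the mannosidase-like gene Edem3 at 1.47-fold (adjusted p = 0.0153), and 3 in males, led by Selk at 1.29-fold and Aup1 at 1.22-fold (adjusted p = 0.000765 and 0.000611). Of 14 vesicle coat genes 1 was higher in females and 2 in males. Sec24a was 1.34-fold higher in females (adjusted p = 0.00496), and Sec13 and Tmed10 were 1.14-fold and 1.12-fold higher in males (adjusted p = 0.00779 and 0.0194). Of 24 other ATF4 and integrated stress response targets, 3 passed toward females and 6 toward males. The amino acid transporter gene Slc7a5 averaged 17.3 ± 1.08 CPM in females and 1.91 ± 0.638 CPM in males (SD, n = 6 each), a 9.13-fold difference with adjusted p = 7.87e-10, while Eif4ebp1, a translation repressor, was 1.61-fold higher in males (adjusted p = 8.71e-05). Gdf15, a stress-induced hormone, was 2.55-fold higher in females (adjusted p = 0.0141). Female 12 was the highest female in 76 of these 115 genes, among them 16 of 19 translocon and signal peptidase genes, 12 of 14 glycosylation genes and 12 of 14 vesicle coat genes, against 24.3% of all genes. Of the 115, 1 reached 2-fold of the female median in female 12, namely Ero1lb.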

How the data were processed

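Liver RNA of each rat went into a TruSeq RNA library at 1 µg, per the labels' protocols. The authors deposited whole-number read counts per gene symbol, with no normalization, 1 file per animal. Tools named in the submitters' processing notes are Bowtie2 (2.0.2) and DESeq, with build rn4. Which program, annotation and strand setting produced the counts is not given in the sources used here. Overlapping and antisense genes therefore cannot be told apart. The last 5 rows of each file name no gene, held 27.1% to 31.7% of all counts and were left out.

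All genes were tested with edgeR (4.0.16, R 4.3.3) (filterByExpr with minimum count 10 and minimum total 15, TMM, robust quasi-likelihood F test, females over males, no covariate). SE is the absolute log2 fold change over √F. Adjusted p-values are Benjamini-Hochberg values over the 9943 genes tested. Correlations used log2 CPM with prior count 2 and 2-sided exact permutation over all pairings. Steps were tested on simulated data. Alternatives were other scalings and filters, DESeq2 1.42.0, limma 3.58.1 (voom), no robust dispersion and leaving out animals. Libraries of 1 sex all differed by more than counting noise (lowest chi-square over degrees of freedom 6.02). Nothing in the labels gives litter, cage or collection time, and animal numbers run with sex, so such a batch and sex cannot be told apart.

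The genes, arms, lists and pairs were chosen with earlier results of these data known. The naming rule took members with adjusted p under 0.05 and at least 1.3-fold, the sensors, Hspa5, Xbp1, Atf4, Ddit3 and Asns, and up to 3 called genes of each other list. Others named in detail, such as Derl1, Derl3, Creld2 and Hyou1, were chosen after their values were seen. For Hyou1 the table holds a pair of promoters and the first was used.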

Additional observations from a re-analysis of the deposited data

Results flagged for a closer look

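Each gene's 6 females and 6 males were examined for an animal far from the rest, by the gap to the nearest animal as a share of the group's range (Dixon's 95% critical value). Chance gives such a value in about 1 in 20 groups. Of 32 genes, 23 stood out in females, each for a high value in female 12, and 1 in males, for a low value in male 4. All values of 1 animal come from 1 library, so these are not independent.

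In female 12 these chaperones stood at 3711 CPM for Hspa5, 2231 for Hsp90b1, 886 for Hyou1, 249.8 for Creld2, 93.8 for Sdf2l1, 186 for Manf, 1441 for Calr, 864 for Canx, 166 for Dnajb9, 199.6 for Dnajb11 and 384 for Dnajc3. The foldases stood at 1387 CPM for Pdia4, 431 for Pdia6, 997 for Pdia3 and 273 for Ppib. Degradation and translocon genes stood at 519 CPM for Herpud1, 390.5 for Sel1l, 57.7 for Derl3, 182 for Syvn1 and 361 for Sec61a1. The sensors Atf6 and Eif2ak3 stood at 51.0 and 42.4 CPM, and Ddit3 at 29.0 CPM. In male 4 Canx, at 518 CPM, was the lowest of the males, with the next at 623 CPM.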

How the results depend on the processing

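Over all 12 animals 4 genes passed toward females and 3 toward males. With no filter 2 were higher in females, and 0 under ATF6. DESeq2 gave 2 rather than 1 higher in females under IRE1-XBP1. Without male 4 and female 12 together 7 were higher in males, 3 of them under ATF6 and 2 under PERK. Leaving out 1 animal at a time gave 2 to 5 genes toward females (0 to 3 under ATF6) and 3 to 6 toward males (0 to 2 under ATF6, 1 to 2 under PERK), the most in males without female 12 and the fewest in females without male 1 or male 2. Derl3, at 0.85 on the log2 scale over all animals, was at -1.78 without female 12 and at -1.91 without male 4 and female 12 together (from -1.78 to 1.304 when 1 animal was left out, the highest without male 6). Calr (log2 -0.24 and -0.23) and Ddit3 (-0.56 and -0.58) were lower in females in the same fits, and Herpud1 (-0.48) in the second. Causes other than the animal left out were not tested. Of 835 values of single genes or pairs under an alternative, 787 stayed on their side of the threshold or moved little. Of the gene values, 43 had the opposite sign to the fit over all animals, 41 of them past the threshold in neither fit. No paired analysis was possible because the sexes share no animal numbers. Trib3 and Derl3 in females rest on as few as 19 and 11 counts, which limits their precision.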

Other observations

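Genes outside the list that also stood far above the female median in female 12 were looked at after their values were seen. Of 7544 genes with a mean of at least 5 CPM, 60 were at least 2-fold above it, and 13 of these were among the 32 genes described. Igfbp1, an insulin-suppressed binding protein gene, stood at 69.5 CPM in female 12, against 4.34 to 15.4 CPM in the other females and 13.6 to 40.2 CPM in males. Pck1, the gluconeogenic carboxykinase gene, stood at 1742 CPM, against 257 to 581 CPM in the other females and 1806 to 2896 CPM in males. G6pc, which releases glucose, stood at 430.2 CPM, against 158 to 219 CPM in the other females and 165 to 728 CPM in males. Cpt1a, which admits fatty acids to mitochondria, stood at 281 CPM, against 87.6 to 143 CPM in the other females and 198 to 318 CPM in males.

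Ficd, which modifies BiP, stood at 27.0 CPM in female 12, against 9.18 to 13.3 CPM in the other females and 4.06 to 14.6 CPM in males. Gmppb, an enzyme of sugar donor synthesis, stood at 64.2 CPM, against 20.6 to 27.3 CPM in the other females and 15.4 to 40.5 CPM in males.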
